A study of Mus musculus with 9 samples.

Results

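Among the genes that cells use to switch MAP kinase signalling off are the dual-specificity phosphatases and the Sprouty-type inhibitors, and 9 of them were followed here: Dusp1, Dusp2, Dusp4, Dusp5, Dusp6 and Dusp16, Spred1 and Spred2, and Spry1. They were taken by gene symbol from a table of 56691 genes, and each symbol matched a single row. The cells were RAW264.7, a mouse macrophage line that turns into osteoclast-like cells when it is given RANKL, the ligand of the receptor RANK. The study compared 3 groups of 3 libraries. Control cells were untreated, RANKL cells received RANKL alone, and RANKL + UD cells received RANKL together with uridine (UD). All were cultured for 3 days, and the paper's methods give 50 ng/mL RANKL for osteoclast differentiation and do not give the UD dose of these libraries. The shared background of the groups is this cell line, so no primary osteoclast precursor was measured.

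MAP kinases (ERK, JNK and p38) are active only while a threonine and a tyrosine in their activation loop carry phosphate. Dual-specificity phosphatases of the MAP kinase type remove both phosphates, and many of their genes are themselves induced by MAP kinase signalling, which makes them negative feedback. Sprouty and Spred proteins act higher up, at the step from receptors and RAS to RAF. In the osteoclast lineage, RANKL and M-CSF signal through all 3 kinase branches.

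The libraries held 15951800 to 19746862 counts each. Osteoclast markers listed for this check (Acp5, Ctsk, Mmp9, Oscar, Dcstamp, Ocstamp, Atp6v0d2 and Calcr) summed to an FPKM (counts scaled to exonic length and library total) of 46.7 to 49.9 in control, 2639 to 2843 with RANKL and 1665 to 1702 with RANKL + UD, and Calcr did not exceed an FPKM of 0.49. Macrophage markers (Adgre1, Csf1r, Cd68, Itgam, Lyz2 and Cd14) summed to 9344 to 9934, 2494 to 2741 and 2176 to 2309 in the same order, a sum mostly of Lyz2 (mean FPKM 8000, 1431 and 1285). Of these 6 genes, 5 fell with RANKL and Cd68 rose (log2 fold change 0.60, adjusted p = 1.07e-08), and 5 were lower with RANKL + UD than with RANKL and Adgre1 was higher (0.22, adjusted p = 0.0142). Of 8 markers of T cells, B cells, fibroblasts and epithelium, the T and B cell genes had 0 counts in every library and the others at most 11. In such bulk samples, fewer cells of a type and less RNA per cell cannot be told apart, and the part that this shift in markers plays in the values below was not tested. The labels name no sequencing date or batch, so none was tested. The submitters call the libraries biological replicates without saying whether each came from a culture of its own, so p-values measure the spread between these libraries, which may be partly technical.

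After 3 days the feedback genes did not move as a block. Dusp1 and Dusp6 fell with RANKL, Dusp2, Dusp4, Dusp5, Dusp16 and Spred1 rose, Spred2 passed the test in neither direction, and Spry1 went from 0 counts to a low count. With UD added to RANKL, Dusp1, Dusp4, Dusp5, Dusp6, Dusp16 and Spred1 were lower than with RANKL alone, and no member passed the test as higher. Levels were tested with edgeR's quasi-likelihood test on the deposited counts, and a gene is called changed at an adjusted p under 0.05. The test covered 11995 genes whose FPKM reached 1 in 3 or more libraries, among them 8 of the 9 members. Spry1 did not reach that level, and Dusp5 reached it through the groups in which it was high.

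**Figure D1:**
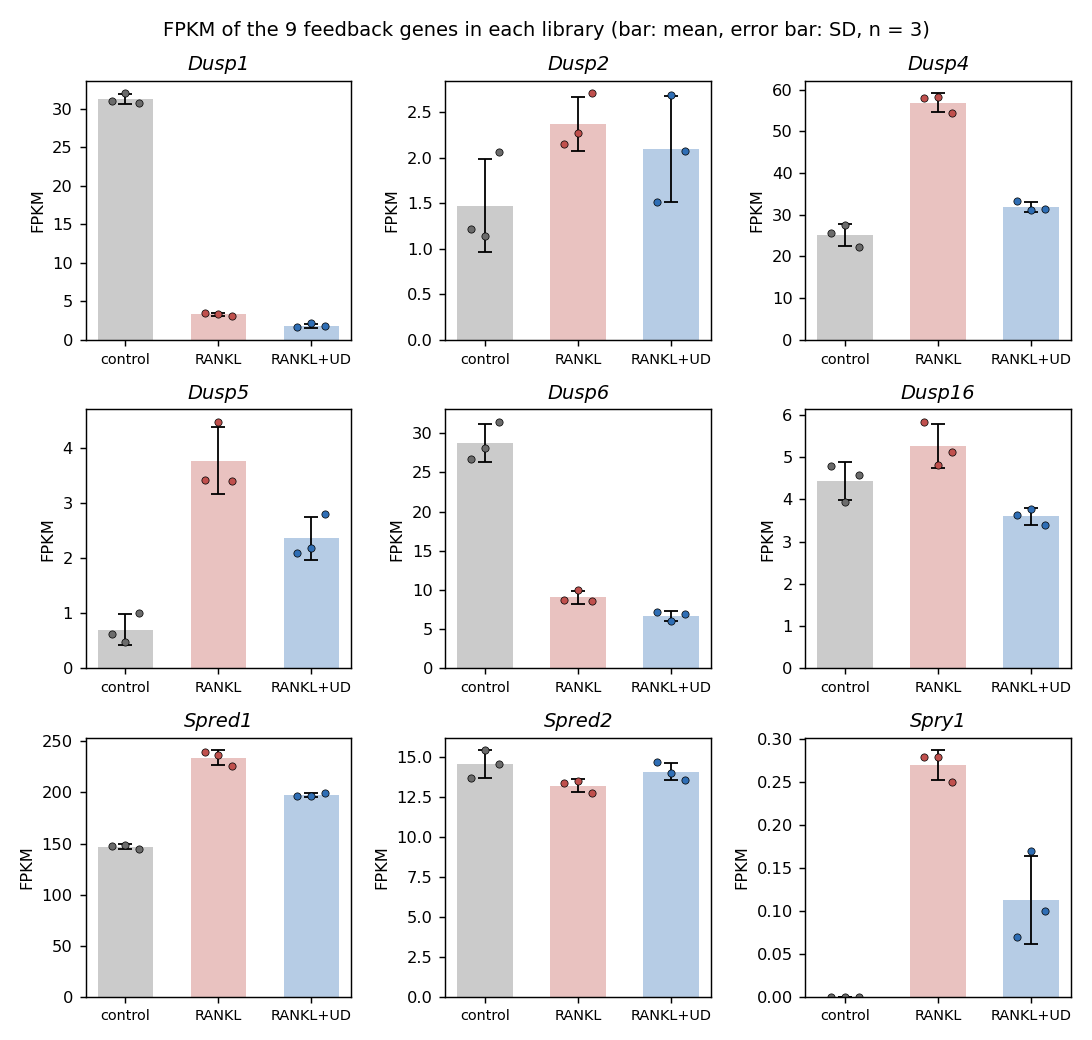
FPKM (vertical axis, each panel with its own scale from 0) of the 9 genes in every library of the control, RANKL and RANKL + UD groups (horizontal axis); bars are means of 3 libraries, error bars the SD and points the libraries. Dusp1 and Dusp6 are high in control alone, while Dusp4, Dusp5, Spred1 and Spry1 are highest with RANKL and lie lower with RANKL + UD.

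Upstream sequence is shown for the tested members with the largest fall (Dusp1) and the largest rise (Dusp5) with RANKL and for Dusp6, whose level ran with that of Dusp1. RefSeq promoters on GRCm38.p6 were matched by symbol for 8 of the 9 members, all but Dusp4. The gene positions printed further below are as deposited, differ from GRCm38 and cannot be set beside these promoter positions. The 250 bases before the annotated start were searched on both strands for a cyclic AMP response element (TGACGTCA), an AP-1 site (TGANTCA), an ETS site (CCGGAAG), an NF-kB site (GGG, any 2 bases, then TTTCC), the CArG box bound by serum response factor, and a GC box (GGGCGG). Matches other than GC boxes are in capitals, and each sequence runs 5′ to 3′ on the strand of its gene.
Dusp1, chr17:26508473-26508722, minus strand: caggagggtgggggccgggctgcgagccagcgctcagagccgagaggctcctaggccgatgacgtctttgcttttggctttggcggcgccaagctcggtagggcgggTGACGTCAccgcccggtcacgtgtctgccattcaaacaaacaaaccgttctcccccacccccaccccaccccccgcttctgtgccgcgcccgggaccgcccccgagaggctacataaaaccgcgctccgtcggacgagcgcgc
Dusp5, chr19:53528895-53529144, plus strand: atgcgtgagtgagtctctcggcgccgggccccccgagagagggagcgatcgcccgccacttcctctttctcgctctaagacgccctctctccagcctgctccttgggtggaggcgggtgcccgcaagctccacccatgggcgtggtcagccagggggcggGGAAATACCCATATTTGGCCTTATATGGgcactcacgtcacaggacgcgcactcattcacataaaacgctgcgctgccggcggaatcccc
Dusp6, chr10:99262981-99263230, plus strand: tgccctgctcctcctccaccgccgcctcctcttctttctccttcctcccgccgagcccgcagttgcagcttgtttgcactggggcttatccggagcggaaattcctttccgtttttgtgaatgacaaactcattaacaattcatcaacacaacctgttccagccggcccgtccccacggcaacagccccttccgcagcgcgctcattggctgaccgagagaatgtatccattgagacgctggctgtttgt
In Dusp1 the capitals are a cyclic AMP response element from -143 to -136, a motif found in 1.55% of 32851 promoters of this length. It lies between GC boxes. In Dusp5 they are an NF-kB match on the opposite strand from -90 to -81, which shares its last 2 bases with the first of a pair of CArG boxes (-82 to -73 and -72 to -63). CArG boxes occur in 1.47% of the promoters and the NF-kB letters in 1.41%. Dusp6 held none of the 6 motifs in this window. Across the 8 members, 7 held a GC box (32.7% of all promoters) and 0 an AP-1 or ETS match (6.75% and 6.91% of all promoters). The bases G and C made up 56.0% to 70.8% of these 8 windows, against a median of 52.4% over all promoters. The part of this base content in the GC box count was not tested. These are matches of letters, not measured binding sites.

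RANKL against control asks what osteoclast differentiation does to these genes. Of the 8 tested members, 5 were higher and 2 lower, and 1 was not called. Over all tested genes 27.3% were higher and 30.2% lower, 57.6% in either direction, and 61% had groups that did not overlap, as the 7 called members did. The members and the lists below were chosen with earlier results of these data known. Such counts describe them and do not test them as sets. The median log2 fold change of the 8 tested members was 0.55, against -0.03 over all tested genes, and the values ran from -3.16 to 2.53. The genes of largest change in each direction, Dusp1 and Dusp5, are both nuclear phosphatases that are induced early in a response.

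**Figure D2:**
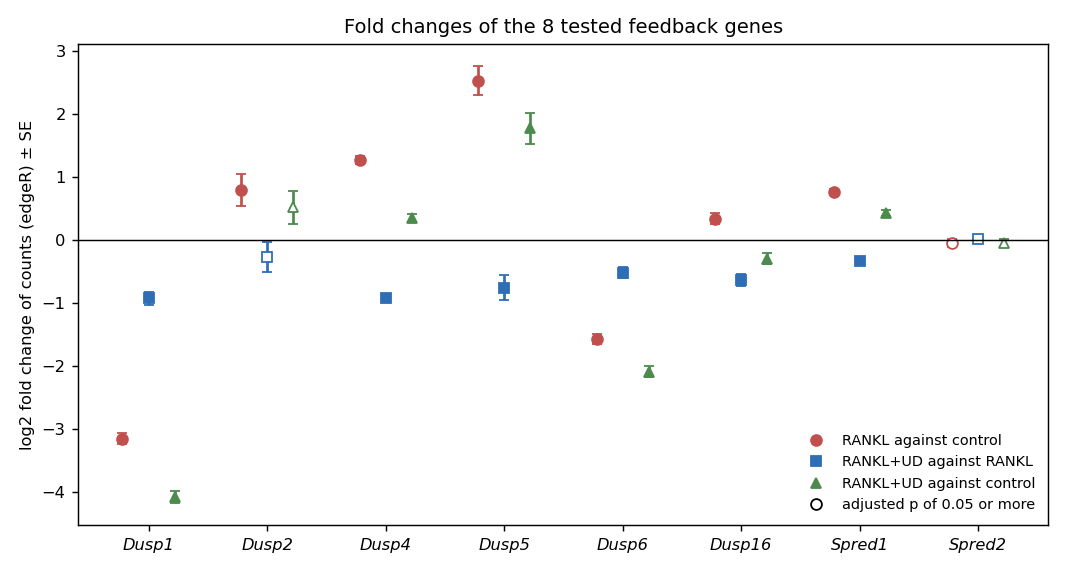
Log2 fold change of counts from edgeR (vertical axis) with its standard error for the 8 tested genes (horizontal axis) in the 3 comparisons; filled symbols passed an adjusted p of 0.05 and open symbols did not. The squares for RANKL + UD against RANKL lie at or below 0 for every gene but Spred2, which sits at 0.01, while the circles for RANKL against control spread from -3.16 for Dusp1 to 2.53 for Dusp5.

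Dusp1 (ENSMUSG00000024190, chromosome 17, 26724564 to 26781102) encodes a nuclear phosphatase that acts mainly on p38 and JNK and limits macrophage inflammatory responses. Its FPKM was 31.02, 32.03 and 30.80 in control, 3.45, 3.38 and 3.07 with RANKL, and 1.64, 2.15 and 1.75 with RANKL + UD. The 3 groups did not overlap in any order, and the control libraries stood far above the rest. The log2 fold change with RANKL was -3.16 (standard error 0.085, adjusted p = 8.44e-18), an 8.92-fold fall, and 1.96% of the tested genes changed more in size. RANKL + UD lay 1.91-fold below RANKL (log2 fold change -0.93, standard error 0.11, adjusted p = 7.90e-07) and 17.0-fold below control. The table's Dusp1 overlaps Ergic1, which had 1065 to 1440 counts per library, on the opposite strand at its far 5′ end, and whether the authors counted by strand is not given in the sources used here.

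Dusp5 (ENSMUSG00000034765, chromosome 19, 53517540 to 53530862), a nuclear phosphatase selective for ERK, moved the other way with RANKL. Its FPKM was 0.62, 0.47 and 1.01 in control, 3.43, 4.48 and 3.41 with RANKL, and 2.10, 2.18 and 2.81 with RANKL + UD. No group overlapped another, and RANKL + UD lay between the other groups. These values rest on 23 to 40 counts per library in control and 162 to 214 with RANKL, and the coefficient of variation in control was 39.8%. The log2 fold change was 2.53 with RANKL (standard error 0.23, adjusted p = 6.47e-09), a 5.78-fold rise, and -0.76 for RANKL + UD against RANKL (standard error 0.20, adjusted p = 0.00403). The second call was lost with limma on log2(FPKM + 0.1), where the difference was -0.65 (adjusted p = 0.0612).

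Dusp4 (ENSMUSG00000031530, chromosome 8, 35274451 to 35287048), a nuclear phosphatase of ERK, JNK and p38, was the most abundant phosphatase of the list after RANKL. Its FPKM was 25.59, 27.50 and 22.38 in control, 58.12, 58.27 and 54.36 with RANKL, and 33.31, 31.10 and 31.38 with RANKL + UD. The RANKL libraries stood apart from the rest, and the RANKL + UD libraries lay just above control without overlap. The log2 fold changes were 1.26 with RANKL (2.40-fold, standard error 0.065, adjusted p = 4.16e-13), -0.92 for RANKL + UD against RANKL (1.89-fold lower, standard error 0.064, adjusted p = 6.08e-10) and 0.34 for RANKL + UD against control (adjusted p = 0.000154). Only 5.43% of tested genes differed more in size between RANKL + UD and RANKL, and for Dusp1 this share was 5.23%.

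Dusp2 (ENSMUSG00000027368, chromosome 2, 127178079 to 127180296), a nuclear phosphatase of immune cells, was measured at low depth, with 41 to 104 counts per library. Its FPKM was 1.22, 1.14 and 2.07 in control, 2.15, 2.27 and 2.71 with RANKL, and 1.52, 2.69 and 2.08 with RANKL + UD. Control and RANKL nearly met without overlapping, and RANKL + UD overlapped both. The rise with RANKL passed the test (log2 fold change 0.79, standard error 0.25, adjusted p = 0.01003), and without control replicate 2 it did not (0.62, adjusted p = 0.0642). For RANKL + UD against RANKL the log2 difference was -0.28 with a 95% interval of -0.86 to 0.31 (adjusted p = 0.392), an interval that holds both a fall and a small rise at this depth.

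Dusp6 (ENSMUSG00000019960, chromosome 10, 99099093 to 99103351) encodes the cytoplasmic phosphatase selective for ERK, and its mRNA is widely read as a marker of ERK output. Its FPKM was 26.67, 28.05 and 31.44 in control, 8.67, 10.03 and 8.54 with RANKL, and 7.15, 5.99 and 6.99 with RANKL + UD. The groups did not overlap and followed the order of Dusp1, highest in control and lowest with RANKL + UD. The log2 fold change was -1.57 with RANKL (2.98-fold lower, standard error 0.085, adjusted p = 9.58e-13) and -0.52 for RANKL + UD against RANKL (1.43-fold lower, standard error 0.092, adjusted p = 0.000134). Against control, RANKL + UD was 4.27-fold lower.

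Dusp16 (ENSMUSG00000030203, chromosome 6, 134692431 to 134769588), a phosphatase that prefers JNK and p38, changed least among the called phosphatases with RANKL. Its FPKM was 4.80, 3.93 and 4.57 in control, 5.84, 4.82 and 5.12 with RANKL, and 3.64, 3.77 and 3.39 with RANKL + UD. The lowest RANKL library was barely above the highest control library, whereas all RANKL + UD libraries were below both other groups. The log2 fold change was 0.34 with RANKL (standard error 0.092, adjusted p = 0.00346), a call that limma on log2(FPKM + 1) did not make (0.20, adjusted p = 0.0624) and nor did limma on log2(FPKM + 0.1) (0.24, adjusted p = 0.0645). For RANKL + UD against RANKL it was -0.63 (1.55-fold lower, standard error 0.093, adjusted p = 1.51e-05). Against control, RANKL + UD was at -0.30 (adjusted p = 0.0116), a call lost without control replicate 1 (-0.23, adjusted p = 0.0655) and without RANKL + UD replicate 3 (-0.25, adjusted p = 0.0579). Dusp16 was the only tested member that passed the test above control with RANKL and below control with RANKL + UD.

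Spred1 (ENSMUSG00000027351, chromosome 2, 116951855 to 117012760), a membrane protein that brings the RAS inactivator neurofibromin to RAS, was the most abundant of the 9 genes per exonic length in all 3 groups. Its FPKM was 147.11, 149.01 and 144.64 in control, 239.65, 236.52 and 225.76 with RANKL, and 196.27, 196.11 and 199.54 with RANKL + UD. The groups did not overlap, with RANKL + UD in between, and the spread within a group was small beside the steps between groups. The log2 fold change was 0.76 with RANKL (standard error 0.043, adjusted p = 2.14e-12) and -0.33 for RANKL + UD against RANKL (standard error 0.043, adjusted p = 2.82e-06). In control 97.9% of the tested genes had a lower mean FPKM than Spred1, and with RANKL 98.6% did.

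Spred2 (ENSMUSG00000045671, chromosome 11, 19874375 to 19974026), its close relative, passed the test in no comparison. Its FPKM was 13.69, 15.41 and 14.58 in control, 13.35, 13.51 and 12.75 with RANKL, and 14.66, 13.98 and 13.59 with RANKL + UD. In FPKM the RANKL libraries lay just under control, and after TMM scaling, which edgeR uses and FPKM does not, they overlapped. The log2 fold change was -0.05 with RANKL (95% interval -0.21 to 0.10, adjusted p = 0.474) and 0.01 for RANKL + UD against RANKL (interval -0.15 to 0.16, adjusted p = 0.947). The latter sign flipped with RLE size factors and with DESeq2 (-0.01 in each). The ratio of Spred1 to Spred2 FPKM was 9.67 to 10.7 in control, 17.5 to 18.0 with RANKL and 13.4 to 14.7 with RANKL + UD.

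Spry1 (ENSMUSG00000037211, chromosome 3, 37694096 to 37698747), a Sprouty antagonist of receptor tyrosine kinase signalling, had 0 counts in each control library. It had 16, 16 and 14 counts with RANKL and 4, 8 and 5 with RANKL + UD. The groups did not overlap, but the levels were very low, at an FPKM of 0.25 to 0.28 with RANKL. Set against a floor of 3 counts per control library, the RANKL mean was 4.57-fold and the RANKL + UD mean 1.90-fold above that floor. Single libraries lay 4.23-fold to 4.79-fold above it with RANKL and 1.18-fold to 2.84-fold with RANKL + UD. These ratios leave out the counting error of the RANKL and RANKL + UD libraries. Summed over libraries, RANKL + UD had 17 counts and RANKL 46, a ratio per total count of 0.404 with a 95% interval of 0.217 to 0.718 that covers counting error only. In edgeR fits with a lower level filter, Spry1 was called higher than control with RANKL (adjusted p = 1.99e-05 with filterByExpr and 6.63e-07 with no filter) and with RANKL + UD (0.00134 and 0.000613). Spry1 reached the filterByExpr level only through the RANKL libraries, in which it was highest, so those calls are not independent of the filter. The difference between RANKL + UD and RANKL was -1.36 (adjusted p = 0.0612, filterByExpr) and -1.35 (adjusted p = 0.220, no filter), so it did not pass the threshold.

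RANKL + UD against RANKL asks what UD adds to RANKL. Of the 8 tested members, 6 were lower and 0 higher, where 20.2% of all tested genes were lower, 18.6% higher and 38.8% either. Their median log2 fold change was -0.58, against 0.005 over all tested genes, and the 6 lower members ranged from -0.33 for Spred1 to -0.93 for Dusp1. The 3 RANKL + UD libraries lay below the 3 RANKL libraries in each of these 6, and 49.4% of all tested genes had groups that did not overlap in this comparison. The same 6 genes differ in what RANKL did to them, since Dusp1 and Dusp6 had fallen and the other 4 had risen. Both comparisons use the same RANKL libraries, so their values are given side by side and not as independent support. The members were chosen with earlier results of these data known, so their counts beside those shares are not a test of the set. When libraries were scaled by total counts and not by TMM, the median over all tested genes moved to 0.09 and the higher share of all called genes from 48% to 66.2%, and 6 members were lower as before.

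RANKL + UD against control left the genes in 3 sets. Dusp1, Dusp6 and Dusp16 were below control, Dusp4, Dusp5 and Spred1 were above it, and Dusp2 and Spred2 were not called, against 27.3% lower, 26.7% higher and 54% either among all tested genes. The groups of the 6 called members did not overlap, which held for 60.1% of all tested genes. The log2 fold changes were -4.09 for Dusp1, -2.09 for Dusp6 and -0.30 for Dusp16 on one side, and 1.77 for Dusp5, 0.43 for Spred1 and 0.34 for Dusp4 on the other. Dusp2 had 0.51 (adjusted p = 0.0955), and this passed without control replicate 3 (0.82, adjusted p = 0.0112) and without RANKL + UD replicate 1 (0.71, adjusted p = 0.0325).

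The MAP kinase phosphatase family as a whole has 10 catalytic members, and FPKM allows their levels to be set side by side per length. The FPKM of the 10 summed to 95.5 to 99.6 in control, 80.7 to 87.1 with RANKL and 51.6 to 53.3 with RANKL + UD, with no overlap between groups. In control the sum was made up of Dusp1 (31.9% ± 0.677), Dusp6 (29.3% ± 2.19) and Dusp4 (25.7% ± 2.65), each as mean ± SD of 3 libraries. With RANKL the Dusp4 share was 67.3% ± 0.451, the Dusp6 share 10.7% ± 0.713 and the Dusp1 share 3.90% ± 0.111. With RANKL + UD these shares were 60.9% ± 1.45, 12.8% ± 1.02 and 3.53% ± 0.569. Dusp1, Dusp6 and Dusp4 thus had similar shares in control, and Dusp4 had the largest share in every RANKL and RANKL + UD library. The ratio of Dusp4 to Dusp6, a nuclear against a cytoplasmic enzyme, was 0.712 to 0.980 in control, 5.81 to 6.70 with RANKL and 4.49 to 5.19 with RANKL + UD. With 3 libraries a group, the smallest two-sided p of an exact permutation test is 0.1, so these shares are given without a test.

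**Figure D3:**
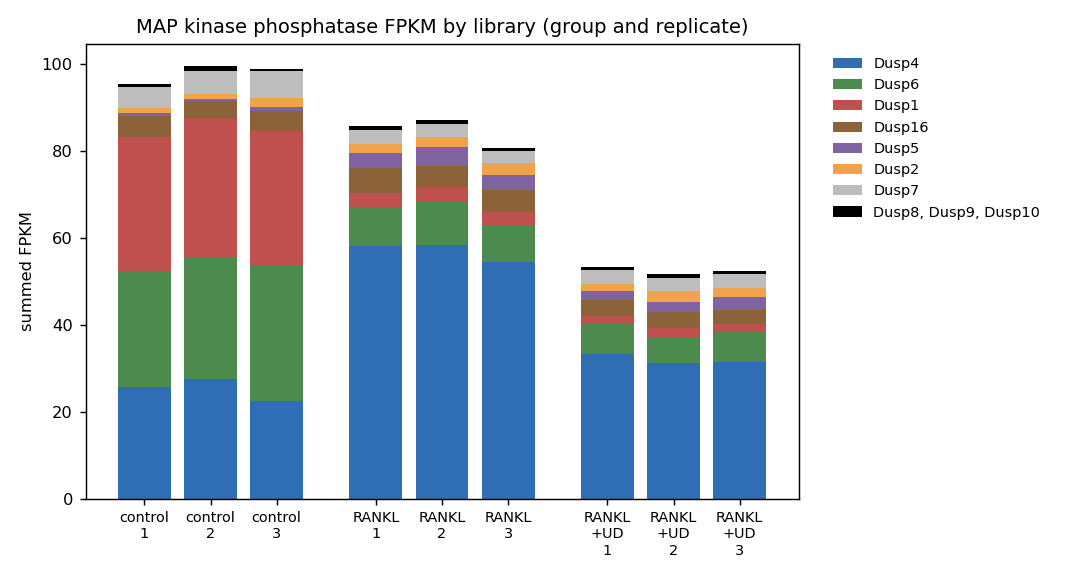
Summed FPKM of the 10 MAP kinase phosphatase genes (vertical axis) in each library (horizontal axis, group and replicate), with a coloured segment for each gene and Dusp8, Dusp9 and Dusp10 together. Control bars reach 95.5 to 99.6 with similar segments of Dusp1, Dusp4 and Dusp6, RANKL bars reach 80.7 to 87.1 and are mostly Dusp4, and RANKL + UD bars reach 51.6 to 53.3.

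Genes with related names lie outside the list of members. A further list held dual-specificity phosphatase, Sprouty and Spred genes and Ptpn7, whose product is a tyrosine phosphatase and not a dual-specificity one. Of its phosphatases, only Dusp7, Dusp8, Dusp9 and Dusp10 are among the MAP kinase phosphatases summed above. Of the 18 genes of this further list, 17 were in the table and 11 were tested. With RANKL 3 were higher and 5 lower, with a median of -0.13, and 72.7% were called in either direction (57.6% of all tested genes). Dusp19 (0.52) and Spry2 (0.35) rose, and Dusp7, a close relative of Dusp6, fell (-0.79), as did Spred3 (-0.66). The count of higher genes was 1 without control replicate 1 or without RANKL replicate 2. With RANKL + UD against RANKL 2 were higher (Dusp18, 0.45, and Ptpn7, 0.18) and 3 lower (among them Spred3, -0.62, and Dusp11, -0.41), with a median of 0.01 and 45.5% called (38.8% of all tested genes). The higher count was 1 without RANKL replicate 2 or RANKL + UD replicate 2. Against control, RANKL + UD had 5 higher genes, led by Dusp28 (1.06) and Dusp12 (0.58), and 6 lower, led by Spred3 (-1.28) and Dusp7 (-0.76). That was 100% of the tested genes of the list, where 54% of all tested genes were called (26.7% higher and 27.3% lower). In this comparison the higher count was 3 without control replicate 1 or without RANKL + UD replicate 2. Dusp8, Dusp9, Dusp10, Dusp14, Dusp23 and Spry4 stayed under the level filter.

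The kinase cascades that the feedback genes restrain were followed with lists of ERK cascade genes and of p38 and JNK cascade genes. Of 25 ERK cascade genes 23 were tested. With RANKL 8 were higher and 7 lower (median -0.01; 65.2% called, 57.6% of all tested genes), with the adaptor Gab2 (0.80) and the ERK kinase gene Map2k1 (0.57) at the top and the RAS activator Rasgrp3 (-0.85) at the bottom. With RANKL + UD against RANKL 2 were higher (Rps6ka1, 0.22, and Ptpn11, 0.18) and 9 lower (median -0.14; 47.8% called, 38.8% of all tested genes), led by Mapk3, which encodes an ERK, at -0.52 and the RAS inactivator Rasa1 at -0.49. Scaled by total counts these counts were 5 and 5, so the balance of this list rests on the scaling. The higher count was 1 without RANKL replicate 1, RANKL + UD replicate 2 or RANKL + UD replicate 3. Set against control, RANKL + UD had 6 higher genes, led by Hras (0.59) and Nras (0.44), and 8 lower, led by Rasgrp3 (-1.04) and Mapk3 (-0.60). In that comparison 60.9% of the tested list was called, against 54% of all tested genes.

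Of 20 p38 and JNK cascade genes 16 were tested. With RANKL 4 were higher, led by the p38 kinase gene Map2k3 (0.80) and Map2k4 (0.29), and 9 lower, led by Map3k5 (-1.18), which encodes the stress kinase ASK1, and Map3k8 (-0.93), with a median of -0.38 and 81.2% called (57.6% of all tested genes). The kinase encoded by Map3k8 also acts in the ERK cascade, but its gene was counted here and not in the ERK cascade list. With RANKL + UD against RANKL 2 were higher (Mapk9, 0.18, and Map3k7, 0.18) and 2 lower (Map3k1, -0.32, and Rps6ka5, -0.25), with a median of 0.06 and 25% called (38.8% of all tested genes). Scaled by total counts, 8 were higher and 1 lower. The higher count was 1 without RANKL replicate 2 and 4 without RANKL replicate 3, and the lower count was 1 without any of RANKL replicates 1, 2 and 3 or RANKL + UD replicates 1 and 2. Relative to control, 3 genes were higher with RANKL + UD, led by Map2k3 (0.81) and Mapk11 (0.64), and 9 lower, led by Map3k5 (-1.37) and Map3k1 (-0.79). In that comparison 75% of the tested list was called, against 54% of all tested genes.

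**Figure D4:**
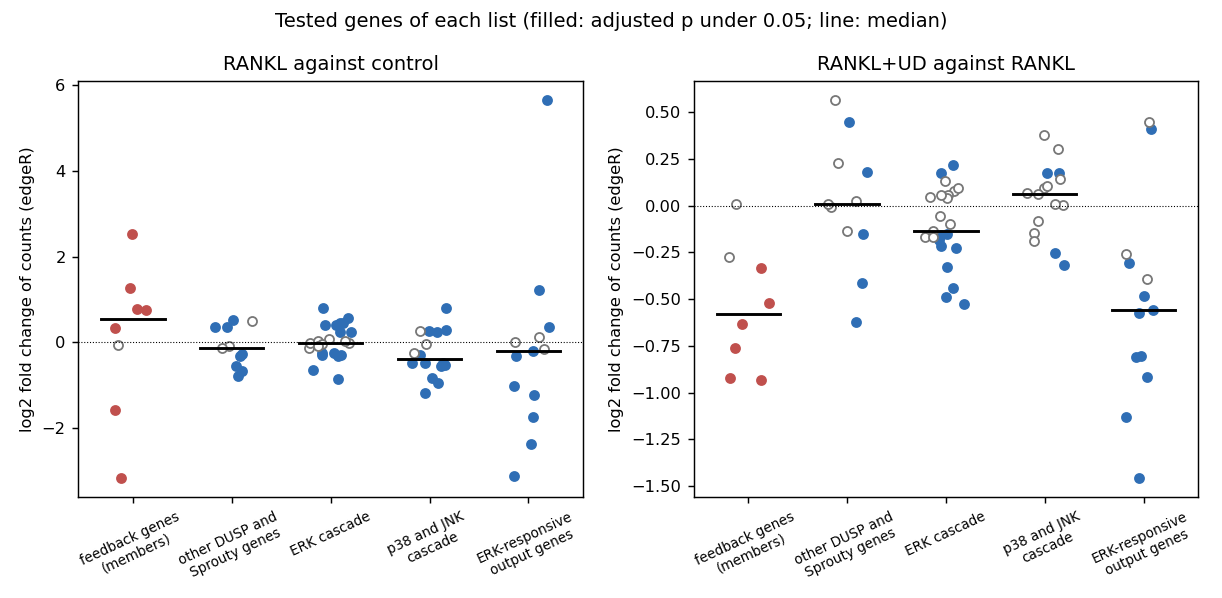
Log2 fold change of counts (vertical axis) for the tested genes of the feedback list and of 4 related lists (horizontal axis), for RANKL against control on the left and RANKL + UD against RANKL on the right; filled points passed an adjusted p of 0.05, the line is the median of each list, and the vertical scales differ. On the right the medians of the feedback genes and of the ERK-responsive genes lie at -0.58 and -0.56, and those of the other lists between -0.14 and 0.06.

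Genes known to respond to ERK, apart from the members, were listed as readouts of the pathway. Of 15 such genes, chosen with earlier results of these data known, 13 were tested. With RANKL 3 were higher and 7 lower (median -0.19), 76.9% in all against 57.6% of all tested genes. Myc rose from an FPKM of 0.767 ± 0.0551 to 36.3 ± 1.14 (log2 fold change 5.65) and Phlda1 by 1.21, while the early response genes Egr1 (-3.11) and Fos (-2.36) fell, as Dusp1 did. The 3 genes not called with RANKL were Etv1 (0.02), Etv5 (0.14) and Egr2 (-0.15). With RANKL + UD against RANKL 9 were lower and 1 higher (median -0.56), where 20.2% and 18.6% of all tested genes were. Myc (-1.46) and Egr2 (-1.13) led the lower genes, and Ccnd1, which encodes cyclin D1, was the higher one (0.41). The higher count was 2 without RANKL replicate 1. Compared with control, RANKL + UD had 3 higher genes, led by Myc (4.20) and Phlda1 (0.95), and 10 lower, led by Egr1 (-3.41) and Fos (-3.17). Thus 100% of the tested genes of this list were called, against 54% of all tested genes (26.7% higher and 27.3% lower).

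The wider set was the 388 genes that the table annotates to the KEGG MAPK signaling pathway, members left out. This annotation was used as deposited, includes pseudogenes, and was not checked gene by gene, for instance for Mitd1. Of the set, 189 genes were tested. With RANKL 53 were higher and 81 lower, 70.9% in all against 57.6% of all tested genes, led by Myc and by Mras (5.23), a RAS relative, and by Igf1 (-3.75) and the calcium channel gene Cacna1d (-2.60). With RANKL + UD against RANKL 28 were higher and 53 lower (median -0.03), 42.9% in all against 38.8% of all tested genes, and scaled by total counts 57 were higher. The largest differences were those of Hspa1l (1.51), whose reads may be shared with near-identical heat shock genes, Mitd1 (0.53), Ddit3 (-2.18) and Gadd45a (-2.14), the last a stress gene that also acts on p38 signalling. Like Dusp5, some named list genes reached the level filter through the groups in which they were high and had a mean FPKM under 1 elsewhere. Hspa1l (0.807, 0.723 and 2.18 in control, RANKL and RANKL + UD) did so through RANKL + UD, Spred3, Igf1 and Cacna1d through control, and Myc and Mras through RANKL and RANKL + UD. Against control, RANKL + UD had 52 higher and 83 lower genes, 71.4% in all against 54% of all tested genes, with Mras (4.77) and Myc (4.20) at the top and Igf1 (-4.37) and Fos (-3.17) at the bottom.

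Levels were also correlated as log2(CPM + 1), where CPM is counts scaled to the library total with TMM scaling. Across the 9 libraries, the values of Dusp1 and Dusp6 ran together (Pearson r = 0.99), as did those of Dusp5 and Spred1 (0.96) and of Dusp4 and Spred1 (0.94). The libraries form 3 groups, so these values describe the order of the groups more than single libraries, and 658 tested genes had an r over 0.95 with Dusp1. The genes most like Dusp1 were Rasgrp3 (0.998) and Slc39a14 (0.998), and those most like Dusp6 were Sptbn1 and Cdk14 (0.997 and 0.996). Dusp4 was most like Plekhn1 and Ifrd1 (0.996 and 0.992), Dusp5 like Ankrd13b and Ptpn1 (0.992 and 0.991), and Spred1 like Fgd6 and Slc7a14 (0.999 and 0.998). Dusp2 and Dusp16 had few genes of like pattern, with 2 and 4 over 0.95. The nearest were Ints6 and Zfp1 for Dusp2 (0.968 and 0.957) and Dync1i2 and Ezh1 for Dusp16 (0.965 and 0.962). For Spred2, 0 genes exceeded 0.95, and Rabl2 (0.900) and Mir7086 (0.888) came closest.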

How the data were processed

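RNA from 9 libraries was sequenced by the authors on an Illumina platform after poly(A) selection and strand-specific preparation. They deposited a table with raw counts per gene, without normalization, and with FPKM, which the authors computed from those counts, the exonic length and the library total (recomputed within 0.01 for 100% of genes). The labels name build mm10, while 0 of the 9 members have their GRCm38 coordinates in the table and all 9 have the same span. Gene positions are therefore given as deposited, without a build, and do not share the numbering of the GRCm38.p6 promoters. The aligner, counting tool and strand setting are not given in the sources used here. The columns called Model were taken as the RANKL libraries from the paper's use of that word, and all 18 value columns were used.

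Counts were tested with edgeR 4.0.16 in R 4.3.3 (TMM, quasi-likelihood F test, all 9 libraries in one fit, Benjamini-Hochberg adjustment). Standard errors are the log2 fold change divided by the square root of F, and 95% intervals use 6 residual degrees of freedom. DESeq2 1.42.0 and limma 3.58.1 served as alternatives, and Python 3.11.15 for sequences and figures. The members and lists were chosen with earlier results of these data known. Named genes were the members, the 2 largest rises and falls of each list among called genes, the 2 genes most correlated with each member, markers and overlapping genes. The ERK-responsive genes not called with RANKL were named as well. Some results of the lists are not reported here. Counting intervals and the floor of 3 counts cover counting error only. Replicate libraries differed beyond sampling noise (chi-square per degree of freedom 3.00 to 9.75).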

Additional observations from a re-analysis of the deposited data

How the results depend on the processing

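The number of members called in each direction stayed within 1.5 times of the reported count in all 3 comparisons under every alternative, a wide margin for such small counts. With single libraries left out in turn, 4 to 5 members were higher and 2 lower with RANKL. For RANKL + UD against RANKL 6 were lower and 0 higher each time. For RANKL + UD against control 3 to 4 were higher and 2 to 3 lower. Of 432 fold changes of members recomputed under an alternative, 420 kept direction and side of the threshold, 6 lost the call, 2 gained it and 4 changed sign, the last all for Spred2 between RANKL + UD and RANKL (-0.006 with RLE size factors and with DESeq2, negative without RANKL replicate 3 and without RANKL + UD replicate 1, within a range of -0.028 to 0.0322 over all libraries left out in turn). Small lists moved more. For RANKL + UD against RANKL, with total counts the higher genes numbered 3350 over all genes, 5 in the ERK cascade, 8 in the p38 and JNK cascade, 2 among ERK-responsive genes and 57 in the KEGG pathway, and the lower genes 5 in the ERK cascade and 1 in the p38 and JNK cascade. With limma on log2(FPKM + 1) and on log2(FPKM + 0.1) the lower genes numbered 1556 and 1536 over all genes, 1 and 1 among the other phosphatases and Sprouty genes, 5 and 5 in the ERK cascade, 1 and 1 in the p38 and JNK cascade and 35 and 34 in the KEGG pathway, and the higher genes 6 and 6, 5 and 5 and 47 and 48 in the last 3 lists. With no filter the p38 and JNK cascade had 1 lower gene. For RANKL against control, the other phosphatases and Sprouty genes had 5 higher genes with no filter and with filterByExpr and 1 with total counts, the ERK-responsive genes 5 with no filter and with filterByExpr, and the p38 and JNK cascade 2 with either limma fit. ERK-responsive genes higher in RANKL + UD than in control were 5 with these settings too. The cause of these shifts was not tested, beyond the larger number of genes tested without a filter.

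With any single library left out, the higher genes among the other phosphatases and Sprouty genes ranged from 1 to 3 (RANKL against control), 1 to 3 (RANKL + UD against RANKL) and 3 to 5 (RANKL + UD against control). For RANKL + UD against RANKL, the higher genes of the ERK cascade ranged from 1 to 2, of the p38 and JNK cascade from 1 to 4 with 1 to 3 lower, and of the ERK-responsive genes from 1 to 2. Over 6 phosphatases in place of 10, the Dusp1 share was 34.1% in control and 4.09% with RANKL, the Dusp4 share 70.5% with RANKL and 65.8% with RANKL + UD, and the Dusp6 share 13.8% with RANKL + UD. As shares of counts, which are not per length, Dusp4 had 21.4%, 59.3% and 52.8% in control, RANKL and RANKL + UD, and Dusp1 4.15% with RANKL.

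The labels give each group replicates 1 to 3, without saying that a number marks a shared batch. No pairing was assumed for that reason. Deviations of same-numbered libraries from their group means correlated at -0.03 to 0.17, and those of differently numbered libraries at -0.18 to 0.11. Of 9 libraries, 5 were closest to their own number, which does not settle whether a number marks a shared batch. With the replicate number as a block, the members called lower in RANKL + UD against RANKL numbered 6 and those called higher with RANKL 5, and no member's call changed. Dusp2, Dusp5 in control and Spry1 are limited by depth.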
